A study of Mus musculus with 12 samples.

Results

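The genes described here encode the enzymes with which cells make and use glutathione, detoxify aldehydes and remove reactive oxygen. A list of 46 symbols defined them, each was matched by its Ensembl ID, and all 46 were found among the 54532 genes of the count tables. Glutathione is a small thiol peptide that glutamate-cysteine ligase (*Gclc*, *Gclm*) and glutathione synthetase (*Gss*) build and that glutathione reductase (*Gsr*) recycles. Glutathione transferases attach it to electrophiles, glutathione peroxidases spend it on peroxides, and thioredoxin with most peroxiredoxins forms a parallel route. Many of these genes are known targets of the transcription factor Nfe2l2 (NRF2), which Keap1 holds at low levels until oxidants or electrophiles modify Keap1. In the brain, astrocytes and progenitors are the cells best known for high glutathione production.

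The values come from bulk RNAseq of neurospheres, free-floating cultures of brainstem progenitors from C57BL/6 pups of postnatal day 3 to 5 that carry the Nestin TVA transgene and p53 floxed alleles, with 12 samples in 4 groups of 3. RCAS viruses enter only cells with the TVA receptor, here driven by the nestin promoter, and they delivered the human BMP receptor *ACVR1* as wild type (WT) or as R206H, each alone or together with the histone mutant H3.1K27M. All groups share the transgene, the floxed alleles, serum-free medium with EGF and FGF2, and an *ACVR1* virus, the labels name no Cre virus, and no group received a histone virus without K27M, so that H3.1K27M and the addition of a further virus cannot be told apart. Nothing in the labels ties a replicate to a litter or a culture, so the p values below measure the spread between these samples, which may be technical.

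Levels are given as CPM, counts scaled to a common library total by TMM over the 12 samples, in the order of replicates 1, 2 and 3. Fold changes are on the log2 scale from edgeR's quasi-likelihood test on 3 samples against 3, with a standard error (SE) and a p adjusted over all genes tested, and a gene was called at an adjusted p under 0.05. Of the 46 genes, 45 had a mean normalized count of at least 10 in every comparison. The other was *Aldh1a2*, with between 0 and 0.400 CPM in the 12 samples. In bulk RNA, fewer cells of a type and less RNA per cell cannot be told apart.

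The *ACVR1* WT samples stood apart in their spread. Their common biological coefficient of variation was 0.275, against 0.0594 with *ACVR1* R206H, 0.0503 with *ACVR1* WT and H3.1K27M and 0.0453 with *ACVR1* R206H and H3.1K27M, and it was 0.121 without *ACVR1* WT replicate 1. In the *ACVR1* WT samples the summed CPM of 4 cycling markers was 1216, 341 and 122, and that of 8 astrocyte markers was 4720, 10901 and 15517. The 7 microglial markers summed to between 3.67 and 23.7 CPM with *ACVR1* WT, 6.89 and 7.78 with *ACVR1* R206H, 0.124 and 0.360 with *ACVR1* WT and H3.1K27M, and 0.429 and 0.570 with *ACVR1* R206H and H3.1K27M. The 5 neural progenitor markers (*Nes*, *Sox2*, *Fabp7*, *Sox9*, *Msi1*) summed to between 2500.3 and 3579 CPM over all 12 samples, while the 5 endothelial markers stayed at or under 4.89 CPM. *Acvr1* reads, which can include the viral human gene where it aligned, ran from 46.1 to 53.1 CPM with *ACVR1* WT, 82.3 to 114 with *ACVR1* R206H, 163 to 368 with *ACVR1* WT and H3.1K27M, and 548 to 1056 with *ACVR1* R206H and H3.1K27M. These ranges did not overlap, so that the receptor form or the histone mutant and the level of *Acvr1* reads cannot be told apart. *Id1*, a target of BMP signalling, was higher in all 6 *ACVR1* R206H samples, at 32.5 CPM or more, than in the 6 *ACVR1* WT samples, at 21.8 CPM or less.

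The *ACVR1* WT spread reached the redox genes, in a share no larger than that of all genes. In 15 of the 45 genes tested (33.3%) the highest *ACVR1* WT sample was more than 1.5 times the lowest, against 2 (4.44%) in each of the other groups. Over all genes these shares were 36.9%, 12.9%, 10.2% and 10.2%. *Slc7a11*, which imports the cystine that glutathione synthesis needs, was singled out after its values were seen, and it measured 12.6, 85.1 and 132 CPM with *ACVR1* WT, 26.7, 31.1 and 32.4 CPM with *ACVR1* R206H, 24.2, 29.2 and 34.7 CPM with *ACVR1* WT and H3.1K27M, and 24.6, 28.9 and 27.1 CPM with *ACVR1* R206H and H3.1K27M. It was lowest and highest in *ACVR1* WT replicates 1 and 3, with all 9 samples of the other groups between them. *Cat*, catalase, which splits hydrogen peroxide, had 284, 496 and 599 CPM in the same samples, and *Prdx6*, a peroxiredoxin that also acts on oxidized phospholipids, had 282, 453 and 579.5 CPM. Thioredoxin (*Txn1*) ran the other way, with 477, 212 and 164 CPM. These orders stood beside the cycling and astrocyte sums given above, whose part in them was not tested.

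**Figure D1:**
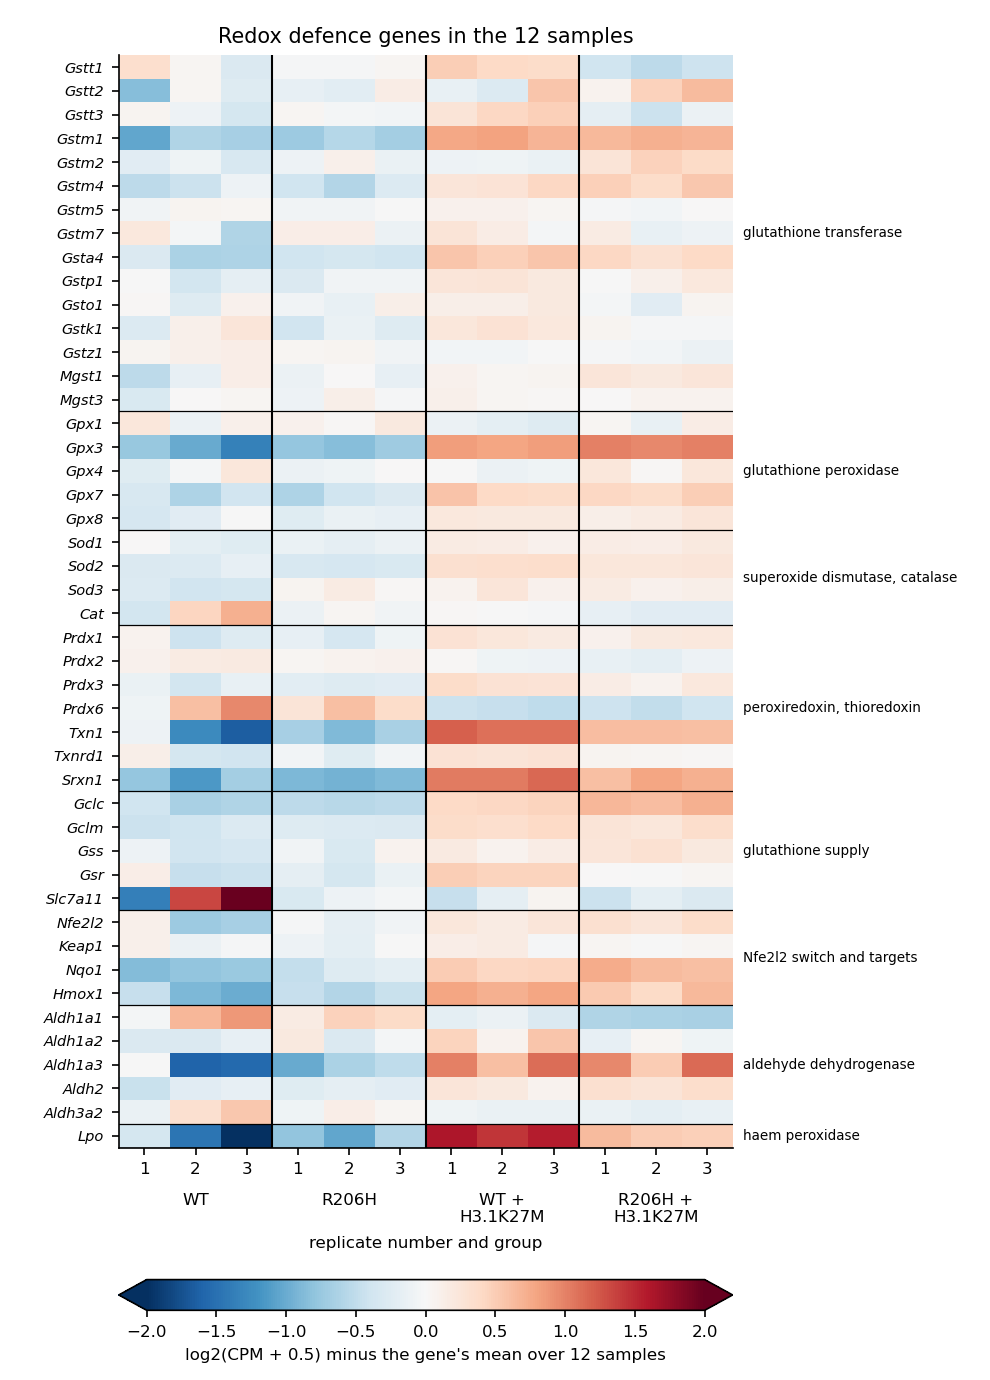
Level of each of the 46 genes (rows, grouped by role) in the 12 samples (columns, replicates 1 to 3 of each group), as log2(CPM + 0.5) minus the gene's mean over the 12 samples. Blocks such as *Srxn1*, *Gpx3*, *Gstm1* and *Lpo* are red in all 6 H3.1K27M samples, and *Slc7a11* spans blue to dark red within the 3 *ACVR1* WT samples.

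With H3.1K27M, a large share of the redox genes was higher in both receptor backgrounds. *Srxn1*, the glutamate-cysteine ligase genes, heme oxygenase, *Nqo1*, the transferases *Gstm1* and *Gsta4*, the peroxidases *Gpx3* and *Gpx7*, *Txn1* and *Lpo* rose in both, and *Prdx6* fell in both. With *ACVR1* WT, 21 of the 45 genes were higher and 1 was lower (called among all genes: 23% in either direction, 12.6% higher and 10.4% lower). With *ACVR1* R206H, 30 were higher and 6 lower, against 56.5% called among all genes, 29.1% higher and 27.4% lower. The median log2 fold change of the 45 genes was 0.42 and 0.35, while that of all genes tested was -0.021 and -0.002. Both comparisons, which share no sample, called 19 genes higher and 1 lower, and among the 15146 genes tested in both these shares were 12.2% and 9.46%. In 20 genes all 6 H3.1K27M samples lay above all 6 samples without it and in 3 (*Prdx2*, *Prdx6*, *Aldh1a1*) below them, against 16.7% and 14.7% of all genes. Beside these differences, the 8 oligodendrocyte lineage markers summed to between 2363 and 3270 CPM over the 6 samples without H3.1K27M and 3481 and 4284 over the 6 with it, and the microglial sums were at the values given above. Single oligodendrocyte lineage markers went both ways, with 1 called higher and 1 lower alongside *ACVR1* WT and 5 higher and 2 lower alongside *ACVR1* R206H. With *ACVR1* R206H the astrocyte markers summed to between 7558 and 8682 CPM without and 6046 and 6212 with H3.1K27M, with 2 of 8 called higher and 5 lower, and alongside *ACVR1* WT 3 of 8 were called lower and 0 higher. The pericyte and fibroblast markers summed to between 9.32 and 15.5 CPM over the 6 samples without H3.1K27M and 15.9 and 31.8 over the 6 with it, with 3 of 7 called higher alongside *ACVR1* WT and 4 alongside *ACVR1* R206H. With *ACVR1* R206H the cycling markers summed to between 683 and 891 CPM without and 497 and 585 with H3.1K27M, and 4 of 4 were called lower. Of the 5 neural progenitor markers, 2 were called lower and 0 higher in each receptor background. The part of these cell markers in the differences was not tested.

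The count with *ACVR1* WT depended on single libraries. Without *ACVR1* WT replicate 1 it was 27 higher and 7 lower, beside 52.6% of all genes called. The genes called in that fit and not with all samples were *Gstt1*, *Sod1*, *Prdx1*, *Txnrd1*, *Nfe2l2* and *Aldh1a3*, which were higher, and *Gstz1*, *Cat*, *Prdx2*, *Slc7a11*, *Aldh1a1* and *Aldh3a2*, which were lower. Of these, *Aldh1a3* passed the filter there only through the samples with H3.1K27M. Leaving out *ACVR1* WT replicate 2 gave 12 genes, and leaving out replicate 1, 2 or 3 of *ACVR1* WT with H3.1K27M gave 13, 11 and 12, all of them higher. In these 4 fits 9.36%, 7.75%, 6.82% and 6.77% of all genes were called. *Gstm1*, *Gsta4*, *Gpx3*, *Gpx7*, *Sod2*, *Srxn1*, *Gclc*, *Gclm*, *Nqo1*, *Hmox1* and *Lpo*, 11 genes, were higher in each of the 12 alternative fits of that comparison. With *ACVR1* R206H, 22 genes were higher and 4 lower (*Gstt1*, *Prdx2*, *Prdx6*, *Aldh1a1*) in each of the 12 alternative fits.

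**Figure D2:**
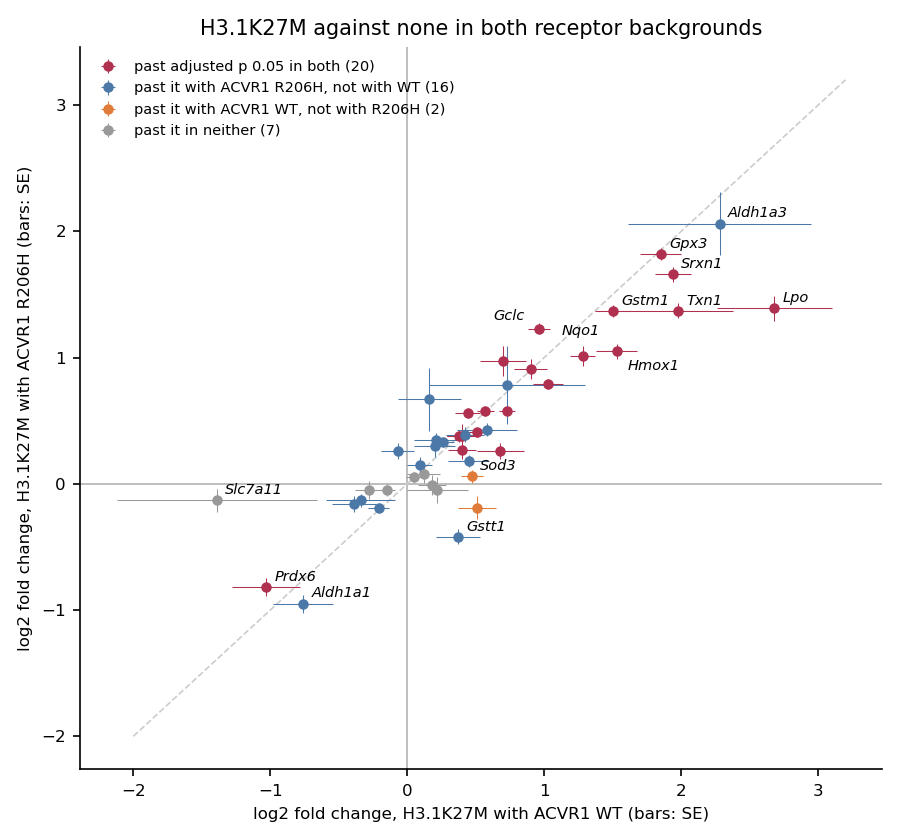
Log2 fold change for H3.1K27M against none with *ACVR1* WT (horizontal) and with *ACVR1* R206H (vertical) for the 45 genes tested, with bars of 1 SE, the dashed line where both are equal, and colours for the adjusted p of edgeR's test. The 20 genes called in both lie in the upper right except *Prdx6*, and *Gstt1* lies right of 0 and below it.

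Between *ACVR1* R206H and WT the genes differed in both directions, and with 3 samples against 3 edgeR made calls only with H3.1K27M present. Without H3.1K27M edgeR called none of the 45 genes and 0 of 15066 genes in all (percent called 0). At an unadjusted p under 0.05 there were 2 of the 45, *Sod3* and *Nqo1*, and 534 of all genes, and DESeq2 called *Sod3* alone, beside 0.173% of all genes. In 2 of the genes (*Sod3*, *Nqo1*) every R206H sample exceeded every WT sample and in 3 (*Gstz1*, *Prdx2*, *Sod2*) every R206H sample was lower, against 5.34% and 3.87% of all genes, together 9.21%. Without *ACVR1* WT replicate 1, which leaves 2 samples against 3, 10 were higher and 5 lower, beside 23.1% of all genes called. Among the 10 was *Aldh1a3*, whose remaining *ACVR1* WT samples were under the filter by themselves. With H3.1K27M, *ACVR1* R206H was called higher for 9 and lower for 13 of the 45, against 20.3% of all genes in either direction, 11.4% higher and 8.95% lower. The median log2 fold changes of the 45 genes were 0.01 without and -0.04 with H3.1K27M, beside -0.013 and 0.001 for all genes.

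The 13 genes that fell with *ACVR1* R206H alongside H3.1K27M were *Lpo*, *Gstt1*, *Txn1*, *Gsr*, *Aldh1a1*, *Gstt3*, *Srxn1*, *Txnrd1*, *Cat*, *Hmox1*, *Gsta4*, *Gstk1* and *Prdx3*, and the 9 that rose were *Gclc*, *Gpx3*, *Mgst1*, *Gpx4*, *Nqo1*, *Gpx1*, *Aldh2*, *Nfe2l2* and *Gstm2*. *Lpo*, *Gstt1*, *Gstt3* and *Gstm2* had the largest log2 fold changes, -0.98, -0.85, -0.61 and 0.78, and the other 18 lay between -0.49 and 0.28. Of the 6 fits that leave out a sample, the calls of *Gsta4* and *Gstk1* held in 0, those of *Prdx3* and *Gstm2* in 1, *Gpx1* and *Aldh2* in 2, *Nfe2l2* in 3 and *Nqo1* in 4, while the other 14 held in all 6. DESeq2 did not call *Gstm2*, *Gsta4*, *Gstk1*, *Prdx3* and *Nfe2l2*. Without replicate 2 of *ACVR1* WT with H3.1K27M the calls were 4 higher and 10 lower, beside 12.8% of all genes called. With all 12 samples in 1 fit, where the spread of the *ACVR1* WT samples enters, *Gstt1*, *Gstt3* and *Gclc* were the 3 genes still called, beside 2.85% of all genes. Beside these differences, the 7 pericyte and fibroblast markers summed to between 15.9 and 19.3 CPM with *ACVR1* WT and H3.1K27M and 25.7 and 31.8 with *ACVR1* R206H and H3.1K27M, the astrocyte markers to 4974 to 5171 and 6046 to 6212, and the cycling markers to 666 to 709 and 497 to 585. The oligodendrocyte lineage markers, 6 of 8 called lower with *ACVR1* R206H, summed to 3626 to 4284 and 3481 to 3572 CPM, and the 6 neuron markers, 3 called higher and 1 lower, to 22.9 to 24.6 and 30.7 to 35.9. Their part in the differences was not tested.

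The start regions of some of these genes are printed because Nfe2l2 reads the antioxidant response element, whose core was searched as TGACNNNGC. In RefSeq promoter windows of GRCm38.p6, from 250 bases before to 50 bases after each start, 37 of the 46 genes had an entry, and 10 of these 37 (27%) held the core on either strand, as did 14% of the 27025 genes with a window. The longer form TGACTCAGC, which is contained in the core's count, stood in *Prdx1* (1 of 37, 2.7%) and in 0.503% of all genes. The others with a core were *Nfe2l2*, *Srxn1*, *Gstm5*, *Gstm7*, *Gclm*, *Mgst1*, *Aldh1a2*, *Txnrd1* and *Sod1*. A match is a description of the letters and not of binding. Below are the bases upstream of the start, outside every annotated exon, for 4 genes that rose with H3.1K27M in at least 1 background (*Srxn1*, *Gclm*, *Prdx1*, *Txn1*) and for *Gstt1* and *Lpo*, which differed most between *ACVR1* R206H and WT alongside H3.1K27M. They are written 5′ to 3′ on the gene's strand in lower case with a core in capitals, and a core in capitals that reads GC first lies on the opposite strand.
Srxn1 (chr2:152105274-152105515, plus strand): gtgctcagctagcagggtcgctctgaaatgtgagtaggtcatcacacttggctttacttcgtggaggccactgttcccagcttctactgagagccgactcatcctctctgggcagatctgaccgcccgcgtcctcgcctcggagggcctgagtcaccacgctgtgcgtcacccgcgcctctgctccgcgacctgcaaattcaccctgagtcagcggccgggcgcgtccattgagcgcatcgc
Gclm (chr3:122245307-122245556, plus strand): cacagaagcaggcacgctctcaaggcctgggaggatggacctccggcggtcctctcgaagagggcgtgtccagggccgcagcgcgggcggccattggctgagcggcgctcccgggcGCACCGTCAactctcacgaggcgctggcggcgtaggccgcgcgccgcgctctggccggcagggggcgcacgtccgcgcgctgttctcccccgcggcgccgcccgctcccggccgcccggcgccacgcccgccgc
Prdx1 (chr4:116685349-116685543, plus strand): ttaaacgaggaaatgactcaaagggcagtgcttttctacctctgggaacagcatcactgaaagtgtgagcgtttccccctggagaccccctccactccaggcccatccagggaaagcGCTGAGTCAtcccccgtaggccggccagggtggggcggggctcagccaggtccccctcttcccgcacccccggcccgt
Txn1 (chr4:57956412-57956661, minus strand): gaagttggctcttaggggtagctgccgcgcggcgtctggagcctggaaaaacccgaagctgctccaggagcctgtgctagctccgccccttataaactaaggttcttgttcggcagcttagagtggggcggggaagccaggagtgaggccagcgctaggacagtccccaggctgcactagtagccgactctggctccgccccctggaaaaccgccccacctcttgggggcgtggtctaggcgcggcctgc
Gstt1 (chr10:75797732-75797981, minus strand): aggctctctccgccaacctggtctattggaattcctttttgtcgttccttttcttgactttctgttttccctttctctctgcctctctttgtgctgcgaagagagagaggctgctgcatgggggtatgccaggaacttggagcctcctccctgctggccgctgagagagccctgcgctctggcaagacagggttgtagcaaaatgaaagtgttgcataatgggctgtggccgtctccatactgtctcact
Lpo (chr11:87826115-87826364, minus strand): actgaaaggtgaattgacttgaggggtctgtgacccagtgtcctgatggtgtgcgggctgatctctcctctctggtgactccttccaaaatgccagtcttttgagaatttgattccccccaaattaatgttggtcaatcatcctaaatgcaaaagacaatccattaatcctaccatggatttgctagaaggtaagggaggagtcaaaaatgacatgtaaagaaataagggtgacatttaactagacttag
In the stretches shown, *Gclm* and *Prdx1* each have 1 core of the form TGACNNNGC, and the other 4 have none of this form. Variants of the core were not searched, and the *Srxn1* stretch holds TGAGTCAGC, which differs from the longer form in 1 base. The core in the window of *Srxn1* lies 32 bases after its start and is not shown. The windows of *Gstt1* and *Lpo* fall in introns of longer GENCODE transcripts of the same genes, and the other 4 lie in no annotated gene.

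*Nfe2l2* itself was higher with H3.1K27M in the *ACVR1* R206H background (log2 fold change 0.43, SE 0.05, edgeR adjusted p = 1.21e-05) and was not called with *ACVR1* WT (log2 fold change 0.58, SE 0.22, edgeR adjusted p = 0.106), where replicate 1 had 174 CPM and the other 2 had 98.4 and 102. Without that replicate it was called higher (log2 fold change 0.90, edgeR adjusted p = 9.16e-06). *Keap1*, the adaptor that sends Nfe2l2 for degradation, had log2 fold changes of 0.09 and 0.15, of which the second was called with overlapping samples, and in 1 of the 6 fits that leave out a sample.

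*Nqo1* (ENSMUSG00000003849, chromosome 8, 107388225 to 107403206, minus strand), a quinone reductase and a standard readout of Nfe2l2, measured 8.80, 9.34 and 9.66 CPM with *ACVR1* WT, 11.6, 13.7 and 14.3 CPM with *ACVR1* R206H, 23.6, 22.1 and 22.3 CPM with *ACVR1* WT and H3.1K27M, and 27.7, 25.6 and 25.2 CPM with *ACVR1* R206H and H3.1K27M. The 4 groups followed each other without overlap in that order. It rose with H3.1K27M alongside *ACVR1* WT (log2 fold change 1.28, SE 0.09, edgeR adjusted p = 0.00118) and with *ACVR1* R206H (log2 fold change 1.01, SE 0.08, edgeR adjusted p = 8.73e-07), and *ACVR1* R206H was higher than WT with H3.1K27M (log2 fold change 0.24, SE 0.06, edgeR adjusted p = 0.0153). Without H3.1K27M its log2 fold change for R206H was 0.51, at an edgeR adjusted p of 0.94. *Hmox1* (ENSMUSG00000005413, chromosome 8, 75093621 to 75100589, plus strand), heme oxygenase, which breaks down heme, measured 80.8, 59.9 and 55.7 CPM with *ACVR1* WT, 80.8, 74.6 and 82.4 CPM with *ACVR1* R206H, 193, 183 and 193 CPM with *ACVR1* WT and H3.1K27M, and 161, 147 and 175 CPM with *ACVR1* R206H and H3.1K27M. All 6 H3.1K27M samples lay above the other 6 (with *ACVR1* WT, log2 fold change 1.53, SE 0.15, edgeR adjusted p = 0.00209, and with *ACVR1* R206H, log2 fold change 1.05, SE 0.06, edgeR adjusted p = 4.96e-08). Its change with *ACVR1* R206H alongside H3.1K27M ran opposite to that of *Nqo1* (log2 fold change -0.21, SE 0.05, edgeR adjusted p = 0.0139).

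Of the 5 genes of glutathione supply, 4 were called higher with H3.1K27M in each receptor background and *Slc7a11* in neither (all genes called higher: 12.6% with *ACVR1* WT and 29.1% with *ACVR1* R206H). *Gclc* (ENSMUSG00000032350, chromosome 9, 77754535 to 77794485, plus strand), the catalytic subunit of glutamate-cysteine ligase and the rate-limiting enzyme of the pathway, measured 68.3, 57.6 and 59.3 CPM with *ACVR1* WT, 63.1, 61.5 and 62.9 CPM with *ACVR1* R206H, 120.1, 121 and 123 CPM with *ACVR1* WT and H3.1K27M, and 143, 139 and 149 CPM with *ACVR1* R206H and H3.1K27M. The 3 *ACVR1* R206H and H3.1K27M samples were the highest of the 12. Its rise with H3.1K27M was 0.96 on the log2 scale with *ACVR1* WT (log2 fold change 0.96, SE 0.08, edgeR adjusted p = 0.00157) and 1.23 with *ACVR1* R206H (log2 fold change 1.23, SE 0.04, edgeR adjusted p = 1.16e-09), and *ACVR1* R206H was higher than WT with H3.1K27M (log2 fold change 0.28, SE 0.04, edgeR adjusted p = 0.000296). *Gclm* (ENSMUSG00000028124, chromosome 3, 122245557 to 122270732, plus strand), the modifier subunit, measured 90.5, 92.5 and 101 CPM with *ACVR1* WT, 102, 101 and 100.1 CPM with *ACVR1* R206H, 157, 155 and 161 CPM with *ACVR1* WT and H3.1K27M, and 146, 143 and 155 CPM with *ACVR1* R206H and H3.1K27M. It rose with H3.1K27M in both backgrounds (log2 fold change 0.73, SE 0.06, edgeR adjusted p = 0.00175 with *ACVR1* WT, and log2 fold change 0.58, SE 0.04, edgeR adjusted p = 2.94e-07 with *ACVR1* R206H), while *ACVR1* R206H and WT overlapped in both histone backgrounds.

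*Gsr* (ENSMUSG00000031584, chromosome 8, 33652523 to 33698163, plus strand), which uses NADPH to return oxidized glutathione to its reduced form, had its highest level with *ACVR1* WT and H3.1K27M. Its samples measured 79.0, 52.1 and 53.8 CPM with *ACVR1* WT, 63.4, 56.8 and 66.1 CPM with *ACVR1* R206H, 102, 98.6 and 98.3 CPM with *ACVR1* WT and H3.1K27M, and 72.9, 72.1 and 74.3 CPM with *ACVR1* R206H and H3.1K27M. It was lower with *ACVR1* R206H than WT alongside H3.1K27M (log2 fold change -0.41, SE 0.04, edgeR adjusted p = 1.31e-05). It rose with H3.1K27M in the *ACVR1* R206H background (log2 fold change 0.26, SE 0.06, edgeR adjusted p = 0.00171), and its rise with *ACVR1* WT (log2 fold change 0.68, SE 0.17, edgeR adjusted p = 0.031) was called in 1 of the 6 fits that leave out a sample. *Gss*, the second enzyme of synthesis, rose by 0.40 and 0.38 with H3.1K27M, the first called in 1 of the 6 fits that leave out a sample, and 15.4% of its exon bases overlap other genes. *Slc7a11* had log2 fold changes of -1.39 (SE 0.73) and -0.13 (SE 0.09) with H3.1K27M, neither called, and without *ACVR1* WT replicate 1 the first was called (log2 fold change -1.90, edgeR adjusted p = 0.000111).

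**Figure D3:**
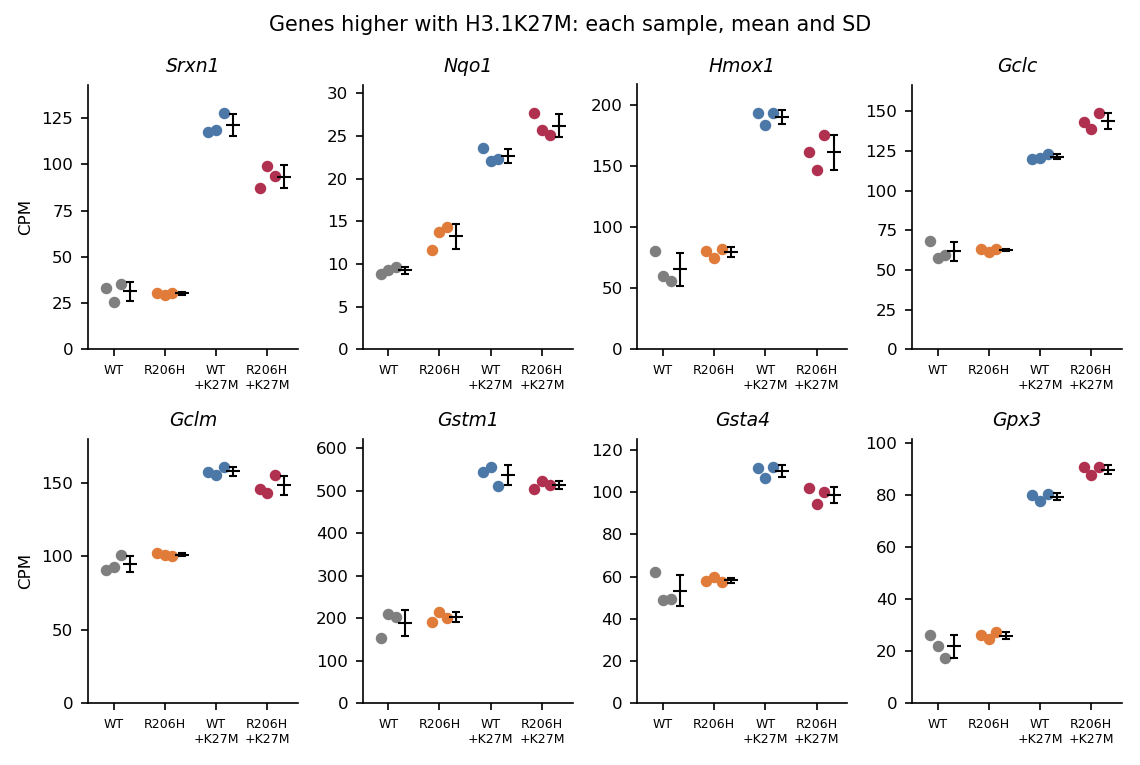
CPM of 8 genes that were higher with H3.1K27M in both receptor backgrounds, in each of the 12 samples (points), with the mean and SD of each group of 3 beside them, on linear axes from 0. In every panel the 6 H3.1K27M samples lie above the 6 samples without it.

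The thioredoxin and peroxiredoxin genes held the most abundant transcript of the set and the 1 gene called lower in both receptor backgrounds. Per length, *Txn1* had the highest mean level of the 46 genes, 596 RPKM (CPM divided by the exon length in kilobases), followed by *Gstm1* at 245, *Prdx1* at 146, *Cat* at 143 and *Prdx2* at 140 RPKM. *Srxn1* (ENSMUSG00000032802, chromosome 2, 152105516 to 152111376, plus strand), sulfiredoxin, which repairs overoxidized peroxiredoxins, measured 33.3, 25.4 and 35.4 CPM with *ACVR1* WT, 30.6, 29.5 and 30.7 CPM with *ACVR1* R206H, 117, 119 and 128 CPM with *ACVR1* WT and H3.1K27M, and 87.1, 99.3 and 93.9 CPM with *ACVR1* R206H and H3.1K27M. It had the smallest adjusted p of these genes for H3.1K27M with *ACVR1* WT (log2 fold change 1.94, SE 0.13, edgeR adjusted p = 0.000965), rose with *ACVR1* R206H as well (log2 fold change 1.66, SE 0.06, edgeR adjusted p = 2.32e-09), and was lower with *ACVR1* R206H than WT alongside H3.1K27M (log2 fold change -0.34, SE 0.06, edgeR adjusted p = 0.000932). *Txn1* (ENSMUSG00000028367, chromosome 4, 57943373 to 57956411, minus strand) measured 477, 212 and 164 CPM with *ACVR1* WT, 326, 277 and 329 CPM with *ACVR1* R206H, 1175, 1105 and 1105 CPM with *ACVR1* WT and H3.1K27M, and 786, 787 and 782 CPM with *ACVR1* R206H and H3.1K27M. The *ACVR1* WT and H3.1K27M samples were the highest, and the *ACVR1* R206H and H3.1K27M samples lay between 782 and 787 CPM. It rose with H3.1K27M in the *ACVR1* R206H background (log2 fold change 1.37, SE 0.06, edgeR adjusted p = 7.11e-09) and fell with *ACVR1* R206H alongside H3.1K27M (log2 fold change -0.49, SE 0.04, edgeR adjusted p = 1.71e-06). Its rise with *ACVR1* WT (log2 fold change 1.98, SE 0.40, edgeR adjusted p = 0.0179) was called in 2 of the 6 fits that leave out a sample, and without *ACVR1* WT replicate 1 it was larger (log2 fold change 2.57, edgeR adjusted p = 3.01e-06).

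*Txnrd1* (ENSMUSG00000020250, chromosome 10, 82833951 to 82897712, plus strand), the reductase of thioredoxin, measured 281, 202 and 198 CPM with *ACVR1* WT, 248, 219 and 249.6 CPM with *ACVR1* R206H, 315, 308 and 316 CPM with *ACVR1* WT and H3.1K27M, and 269, 265 and 263 CPM with *ACVR1* R206H and H3.1K27M. It fell with *ACVR1* R206H alongside H3.1K27M (log2 fold change -0.21, SE 0.04, edgeR adjusted p = 0.00126), a change much smaller than that of *Txn1*. The peroxiredoxins, most of which reduce hydrogen peroxide with electrons from thioredoxin, moved in both directions. *Prdx3*, the mitochondrial form, was higher with H3.1K27M in both backgrounds (log2 fold changes 0.51 and 0.41), *Prdx1* rose with *ACVR1* R206H (0.39) and had 0.42 with *ACVR1* WT, not called, and *Prdx2* fell with *ACVR1* R206H (-0.19) and had -0.21 with *ACVR1* WT, not called. *Prdx6* was the gene called lower in both (log2 fold change -1.03, SE 0.25, edgeR adjusted p = 0.0291 with *ACVR1* WT, and log2 fold change -0.82, SE 0.07, edgeR adjusted p = 1.15e-06 with *ACVR1* R206H), from 282 to 579.5 CPM over the 6 samples without H3.1K27M to 209.9 to 227 CPM over the 6 with it. With *ACVR1* WT that call held in 2 of the 6 fits that leave out a sample.

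Among the 15 glutathione transferases, H3.1K27M was called higher for 5 with *ACVR1* WT (*Gstm1*, *Gsta4*, *Gstm4*, *Gstp1*, *Gstt3*) and for 8 with *ACVR1* R206H (*Gstm1*, *Gsta4*, *Gstm4*, *Mgst1*, *Gstp1*, *Gstk1*, *Gstm2*, *Gstt2*), where *Gstt1* was lower. Among all genes 12.6% and 29.1% were called higher. The *ACVR1* WT calls of *Gstm4*, *Gstp1* and *Gstt3* held in 2, 1 and 1 of the 6 fits that leave out a sample. *Gstm1* (ENSMUSG00000058135, chromosome 3, 108012255 to 108017973, minus strand), a mu-class transferase, measured 155, 209.6 and 203 CPM with *ACVR1* WT, 192, 216 and 200.2 CPM with *ACVR1* R206H, 544, 556 and 511 CPM with *ACVR1* WT and H3.1K27M, and 504, 522 and 512 CPM with *ACVR1* R206H and H3.1K27M. It was more than 2 times higher with H3.1K27M in both backgrounds (log2 fold change 1.50, SE 0.13, edgeR adjusted p = 0.00168 with *ACVR1* WT, and log2 fold change 1.37, SE 0.05, edgeR adjusted p = 1.85e-09 with *ACVR1* R206H), and *ACVR1* R206H and WT overlapped. *Gsta4* (ENSMUSG00000032348, chromosome 9, 78182774 to 78209349, plus strand), which conjugates the lipid aldehyde hydroxynonenal, measured 62.1, 48.9 and 49.3 CPM with *ACVR1* WT, 57.7, 59.6 and 57.6 CPM with *ACVR1* R206H, 112, 107 and 112 CPM with *ACVR1* WT and H3.1K27M, and 102, 94.3 and 100 CPM with *ACVR1* R206H and H3.1K27M. Its increase was 1.03 with *ACVR1* WT (log2 fold change 1.03, SE 0.11, edgeR adjusted p = 0.0026) and 0.79 with *ACVR1* R206H (log2 fold change 0.79, SE 0.04, edgeR adjusted p = 3.29e-08). The other mu-class genes lie beside *Gstm1* on chromosome 3, between positions 107895821 and 108044894, and the mu-class genes are near-identical in parts. Reads with more than 1 match were left out of the counts, so that the levels of all of them, *Gstm1* included, are uncertain. *Gstm4* had log2 fold changes of 0.70 and 0.97, *Gstm5* 0.05 and 0.05, and *Gstm7* 0.22 and -0.05. *Gstm2* stayed between 0.534 and 1.29 CPM and *Gstt2* between 0.188 and 1.42 CPM in all samples, and their calls at 3 against 3 rest on few counts, those for H3.1K27M with *ACVR1* R206H holding in 2 of the 6 fits that leave out a sample.

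The theta-class genes *Gstt1* and *Gstt3* showed a receptor difference with H3.1K27M present. *Gstt1* (ENSMUSG00000001663, chromosome 10, 75783813 to 75798584, minus strand) measured 49.0, 39.8 and 31.6 CPM with *ACVR1* WT, 38.4, 38.3 and 40.0 CPM with *ACVR1* R206H, 55.0, 51.5 and 50.4 CPM with *ACVR1* WT and H3.1K27M, and 29.3, 26.9 and 29.0 CPM with *ACVR1* R206H and H3.1K27M. With H3.1K27M present, all 3 *ACVR1* R206H samples lay below all 9 others and all 3 *ACVR1* WT samples above all 9 others. The fall with *ACVR1* R206H there was -0.85 on the log2 scale (log2 fold change -0.85, SE 0.05, edgeR adjusted p = 4.35e-07), and it was called in all 12 alternative fits. Relative to no H3.1K27M, *Gstt1* was lower with *ACVR1* R206H (log2 fold change -0.42, SE 0.06, edgeR adjusted p = 4.27e-05), and with *ACVR1* WT it was not called (log2 fold change 0.37, SE 0.16, edgeR adjusted p = 0.137), although its 3 samples there lay above the others. Without H3.1K27M the *ACVR1* R206H and WT samples overlapped (log2 fold change -0.05). *Gstt3* (ENSMUSG00000001665, chromosome 10, 75774115 to 75781414, minus strand), which lies next to *Gstt1* and has the same orientation, measured 13.2, 11.9 and 9.90 CPM with *ACVR1* WT, 13.1, 12.4 and 12.2 CPM with *ACVR1* R206H, 15.4, 17.1 and 17.8 CPM with *ACVR1* WT and H3.1K27M, and 11.2, 9.35 and 11.7 CPM with *ACVR1* R206H and H3.1K27M. It too was lower with *ACVR1* R206H alongside H3.1K27M (log2 fold change -0.61, SE 0.09, edgeR adjusted p = 0.000565) in all 12 alternative fits. Relative to no H3.1K27M, *Gstt3* was called higher with *ACVR1* WT (log2 fold change 0.51, SE 0.14, edgeR adjusted p = 0.0429). With *ACVR1* R206H that log2 fold change was -0.19, not called. Of the exon bases of *Gstt3*, 13.6% overlap another gene.

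The remaining transferases changed little. *Gstk1*, *Mgst1* and *Gstp1* had log2 fold changes between -0.22 and 0.40 over the comparisons with H3.1K27M present in at least 1 group, while *Gsto1*, *Gstz1* and *Mgst3* were called in none of the 4 comparisons.

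**Figure D4:**
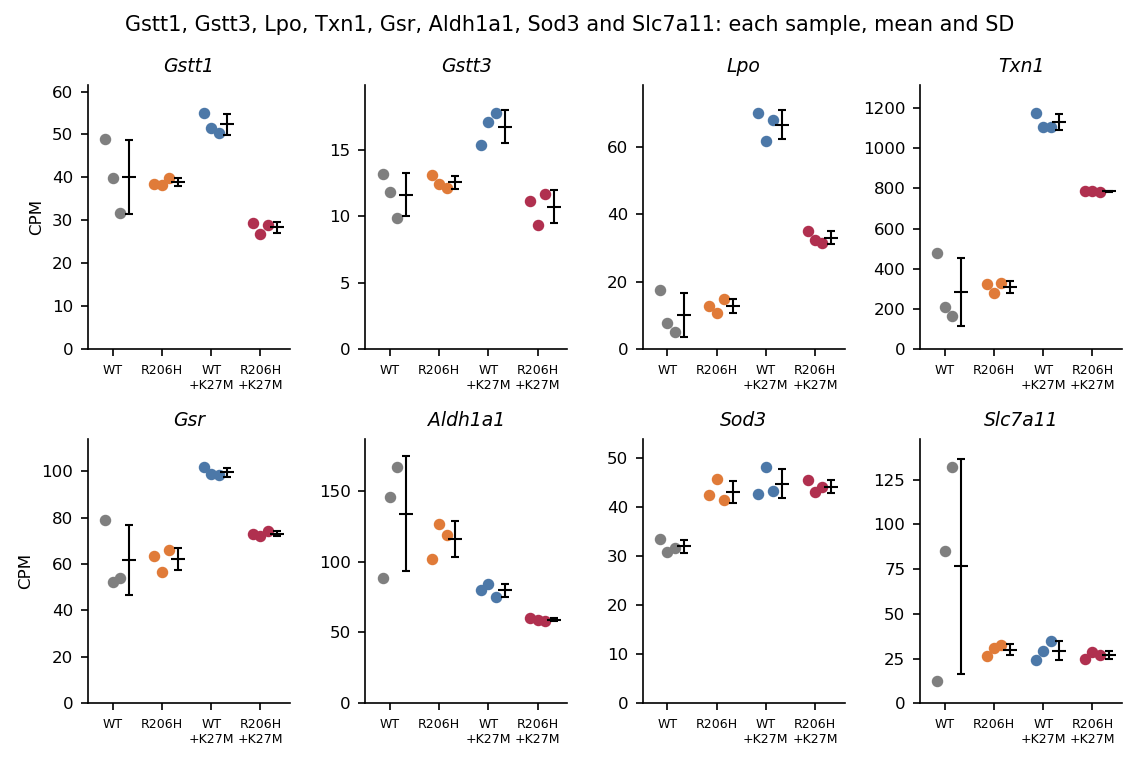
CPM of *Gstt1*, *Gstt3*, *Lpo*, *Txn1*, *Gsr*, *Aldh1a1*, *Sod3* and *Slc7a11* in each of the 12 samples (points), with the mean and SD of each group of 3 beside them, on linear axes from 0. In the first 6 panels the *ACVR1* R206H samples with H3.1K27M lie below the *ACVR1* WT samples with H3.1K27M, *Sod3* is lowest in the 3 *ACVR1* WT samples, and *Slc7a11* runs from 12.6 to 132 CPM within them.

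Of the 5 glutathione peroxidases, 3 were called higher with H3.1K27M in the *ACVR1* WT background (*Gpx3*, *Gpx7*, *Gpx8*) and 4 in the *ACVR1* R206H background (the same 3 and *Gpx4*), beside 12.6% and 29.1% of all genes called higher. *Gpx3* (ENSMUSG00000018339, chromosome 11, 54902453 to 54910377, plus strand), the secreted form, measured 26.4, 22.0 and 17.3 CPM with *ACVR1* WT, 26.1, 24.6 and 27.4 CPM with *ACVR1* R206H, 80.3, 77.8 and 80.4 CPM with *ACVR1* WT and H3.1K27M, and 91.0, 87.9 and 91.0 CPM with *ACVR1* R206H and H3.1K27M. It had the smallest adjusted p of these genes for H3.1K27M with *ACVR1* R206H (log2 fold change 1.82, SE 0.05, edgeR adjusted p = 4.03e-10), rose by a similar amount with *ACVR1* WT (log2 fold change 1.85, SE 0.15, edgeR adjusted p = 0.00156), and was slightly higher with *ACVR1* R206H than WT alongside H3.1K27M (log2 fold change 0.21, SE 0.04, edgeR adjusted p = 0.00225). *Gpx7* (ENSMUSG00000028597, chromosome 4, 108400390 to 108406961, minus strand), a form of the endoplasmic reticulum, measured 15.6, 12.6 and 14.9 CPM with *ACVR1* WT, 12.6, 14.8 and 15.9 CPM with *ACVR1* R206H, 29.4, 26.1 and 25.4 CPM with *ACVR1* WT and H3.1K27M, and 26.4, 25.5 and 27.8 CPM with *ACVR1* R206H and H3.1K27M. The H3.1K27M difference was nearly equal in both backgrounds (log2 fold change 0.90, SE 0.12, edgeR adjusted p = 0.005 with *ACVR1* WT, and log2 fold change 0.91, SE 0.08, edgeR adjusted p = 2.24e-06 with *ACVR1* R206H). *Gpx8*, of the same compartment, rose by 0.38 and 0.38, the first called in 2 of the 6 fits that leave out a sample. *Gpx4*, which protects membrane lipids from peroxidation and so from ferroptosis, was not called with *ACVR1* WT (-0.07) and rose with *ACVR1* R206H (0.26), and *Gpx1*, the common cytosolic form, had -0.28 and -0.05, neither called.

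Among the superoxide dismutases, which turn superoxide into hydrogen peroxide, the mitochondrial *Sod2* changed most with H3.1K27M. *Sod2* (ENSMUSG00000006818, chromosome 17, 13006846 to 13040063, plus strand) measured 106, 106 and 115 CPM with *ACVR1* WT, 103, 102 and 104 CPM with *ACVR1* R206H, 162, 162 and 165 CPM with *ACVR1* WT and H3.1K27M, and 151, 151 and 152 CPM with *ACVR1* R206H and H3.1K27M. The groups with H3.1K27M did not overlap those without it (log2 fold change 0.57, SE 0.06, edgeR adjusted p = 0.00292 with *ACVR1* WT, and log2 fold change 0.58, SE 0.04, edgeR adjusted p = 1.36e-07 with *ACVR1* R206H). The cytosolic *Sod1* rose with *ACVR1* R206H (0.33) and had 0.26 with *ACVR1* WT, not called. *Sod3* (ENSMUSG00000072941, chromosome 5, 52363791 to 52371418, plus strand), the extracellular form, measured 33.5, 30.9 and 31.7 CPM with *ACVR1* WT, 42.4, 45.6 and 41.4 CPM with *ACVR1* R206H, 42.7, 48.2 and 43.3 CPM with *ACVR1* WT and H3.1K27M, and 45.5, 43.0 and 44.0 CPM with *ACVR1* R206H and H3.1K27M. The 3 *ACVR1* WT samples were the lowest of the 12, and the other 9 lay between 41.4 and 48.2 CPM. *Sod3* was higher with H3.1K27M in the *ACVR1* WT background (log2 fold change 0.47, SE 0.08, edgeR adjusted p = 0.0119), in 3 of the 6 fits that leave out a sample, and had a log2 fold change of 0.06 in the *ACVR1* R206H background. For *ACVR1* R206H against WT without H3.1K27M its groups did not overlap (log2 fold change 0.42, SE 0.07, edgeR adjusted p = 0.94), which edgeR did not call, while DESeq2 did, at an adjusted p of 0.0172. *Cat* was lower with *ACVR1* R206H than WT alongside H3.1K27M (-0.18) and lower with H3.1K27M in the *ACVR1* R206H background (-0.13), the second in 3 of the 6 fits that leave out a sample.

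The aldehyde dehydrogenases split. *Aldh2* (ENSMUSG00000029455, chromosome 5, 121566027 to 121593824, minus strand), the mitochondrial enzyme that clears acetaldehyde and lipid aldehydes, measured 102, 119 and 125 CPM with *ACVR1* WT, 118, 124 and 119.8 CPM with *ACVR1* R206H, 166, 159.5 and 147 CPM with *ACVR1* WT and H3.1K27M, and 175, 168 and 179 CPM with *ACVR1* R206H and H3.1K27M. It rose with H3.1K27M in the *ACVR1* R206H background (log2 fold change 0.56, SE 0.04, edgeR adjusted p = 2.72e-07), and its rise with *ACVR1* WT (log2 fold change 0.44, SE 0.09, edgeR adjusted p = 0.0216) was called in 2 of the 6 fits that leave out a sample. *Aldh1a1* (ENSMUSG00000053279, chromosome 19, 20492715 to 20643465, plus strand), which makes retinoic acid from retinal, measured 88.7, 146 and 167 CPM with *ACVR1* WT, 102, 127 and 119 CPM with *ACVR1* R206H, 79.9, 84.5 and 74.9 CPM with *ACVR1* WT and H3.1K27M, and 60.0, 58.8 and 58.0 CPM with *ACVR1* R206H and H3.1K27M. All 6 H3.1K27M samples were below the other 6. It fell with H3.1K27M in the *ACVR1* R206H background (log2 fold change -0.95, SE 0.07, edgeR adjusted p = 3e-07), was just short of the threshold with *ACVR1* WT (log2 fold change -0.76, SE 0.22, edgeR adjusted p = 0.0535), and was lower with *ACVR1* R206H than WT alongside H3.1K27M (log2 fold change -0.41, SE 0.05, edgeR adjusted p = 0.000124). *Aldh1a3*, a further retinal dehydrogenase, had the largest log2 fold change of the class but a low level, from 0.258 to 1.79 CPM without and 2.79 to 4.56 CPM with H3.1K27M. It was called with *ACVR1* R206H (log2 fold change 2.06, SE 0.25, edgeR adjusted p = 2.6e-05) and not with *ACVR1* WT (log2 fold change 2.28, SE 0.67, edgeR adjusted p = 0.0529). There *ACVR1* WT replicate 1 had 1.79 CPM, and the others, at 0.258 and 0.291 CPM, were under the filter by themselves. No fold change is therefore given for the fit without replicate 1, where *Aldh1a3* was called. *Aldh3a2*, the fatty aldehyde dehydrogenase, had -0.39 with H3.1K27M alongside *ACVR1* WT, not called, and -0.16 alongside *ACVR1* R206H, called in 1 of the 6 fits that leave out a sample.

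*Lpo* (ENSMUSG00000009356, chromosome 11, 87806428 to 87828289, minus strand), lactoperoxidase, a heme peroxidase known from milk, saliva and mucosal fluids, had the largest fold change of the 45 genes for H3.1K27M with *ACVR1* WT and for *ACVR1* R206H with H3.1K27M. Its samples measured 17.6, 7.89 and 5.24 CPM with *ACVR1* WT, 12.8, 10.8 and 14.9 CPM with *ACVR1* R206H, 70.0, 61.8 and 67.8 CPM with *ACVR1* WT and H3.1K27M, and 35.2, 32.4 and 31.4 CPM with *ACVR1* R206H and H3.1K27M. The *ACVR1* WT and H3.1K27M samples were the highest, the *ACVR1* R206H and H3.1K27M samples came next, and the groups without H3.1K27M overlapped each other. With H3.1K27M it rose by 2.68 on the log2 scale in the *ACVR1* WT background (log2 fold change 2.68, SE 0.42, edgeR adjusted p = 0.00869) and by 1.39 in the *ACVR1* R206H background (log2 fold change 1.39, SE 0.10, edgeR adjusted p = 2.45e-07). The fall with *ACVR1* R206H alongside H3.1K27M (log2 fold change -0.98, SE 0.06, edgeR adjusted p = 2.86e-07) was called in each of the 6 fits that leave out a sample and not with all 12 samples in 1 fit.

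Whether the *ACVR1* R206H effect differed with the histone was tested as an interaction over all 12 samples. EdgeR called none of the 45 genes and 11 of 15445 genes (0.0712%, with 0.0583% positive and 0.0129% negative). At an unadjusted p under 0.05 there were 8 of the 45, *Gstt1*, *Sod3*, *Gstt3*, *Gclc*, *Lpo*, *Hmox1*, *Gpx4* and *Gsr*, and 1183 of all genes. DESeq2 called 3, *Gstt1*, *Gstt3* and *Sod3*, with adjusted p of 0.00976, 0.0338 and 0.0363, beside 0.711% of the genes to which it gave an adjusted p. For *Gstt1* the interaction was log2 fold change -0.79, SE 0.17, edgeR adjusted p = 0.224. For *Sod3* it was log2 fold change -0.41, SE 0.09, edgeR adjusted p = 0.274. The count depended on *ACVR1* WT replicate 1. Without *ACVR1* WT replicate 1, 7 genes had a positive and 11 a negative interaction, beside 26.6% of all genes called. In that fit *Gstt1* had log2 fold change -0.96, edgeR adjusted p = 9.87e-05, *Lpo* log2 fold change -1.94, edgeR adjusted p = 4.09e-05, *Txn1* log2 fold change -1.20, edgeR adjusted p = 5.67e-05, *Gsr* log2 fold change -0.63, edgeR adjusted p = 0.000159 and *Sod3* log2 fold change -0.43, edgeR adjusted p = 0.00347.

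Other genes of the same pathways, a list of 100, were also counted. With H3.1K27M alongside *ACVR1* WT 18 of 82 tested were higher and 4 lower (all genes, 12.6% and 10.4%), and alongside *ACVR1* R206H 41 of 78 were higher and 10 lower (all genes, 29.1% and 27.4%), with median log2 fold changes of 0.18 and 0.23. The list's further Nfe2l2 regulators and targets had 6 of 20 higher and 0 lower with *ACVR1* WT and 12 higher and 2 lower with *ACVR1* R206H. *Mafg*, a small Maf protein that pairs with Nfe2l2, rose from 74.3 ± 3.84 CPM (SD, n = 3) to 145 ± 7.72 with *ACVR1* WT (log2 fold change 0.95) and from 81.5 ± 3.01 to 149 ± 2.41 with *ACVR1* R206H (0.90). *Osgin1*, an oxidative stress response gene, was at 0.295 ± 0.175 CPM with *ACVR1* WT and 3.69 ± 0.263 with H3.1K27M added, and since the groups without H3.1K27M were under the filter and it was tested only through the others, no fold change is given. *Chac1*, which degrades glutathione, rose in both backgrounds (2.14 and 2.81), as did *Mt3*, a metallothionein (1.42 and 1.42). *Aldh4a1*, of proline breakdown, and *Ggt5*, which cleaves extracellular glutathione conjugates, rose with *ACVR1* WT (1.00 and 2.65) and with *ACVR1* R206H (0.67 and 2.06). *Ephx1*, an epoxide hydrolase, and *Cyp26b1*, which degrades retinoic acid, rose with *ACVR1* WT (1.22 and 0.93) and with *ACVR1* R206H (0.87 and 1.24). *Oplah*, which recycles oxoproline, rose with *ACVR1* R206H (1.22) and had 0.71 with *ACVR1* WT, not called, while without *ACVR1* WT replicate 1 it had log2 fold change 0.42, edgeR adjusted p = 0.038. The genes of NADPH supply, 8 in the list, had 0 higher and 0 lower with *ACVR1* WT, and 1 higher and 2 lower of 7 tested with *ACVR1* R206H.

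For *ACVR1* R206H against WT, the 100 genes had 0 of 79 called without H3.1K27M and 15 of 80 higher and 9 lower with it (all genes, 11.4% and 8.95%), and the interaction called 0 of 81 at an adjusted p under 0.05. With all 12 samples in 1 fit, the calls alongside H3.1K27M were 2 higher and 0 lower, beside 2.85% of all genes called. Alongside H3.1K27M, *Cyp26b1* rose from 131 ± 6.00 to 258 ± 5.95 CPM (log2 fold change 1.00, SE 0.04, edgeR adjusted p = 1.98e-08), *Dhrs3*, a retinal reductase, from 0.764 ± 0.213 to 3.00 ± 0.747 (log2 fold change 2.00, SE 0.26, edgeR adjusted p = 0.000176), and *Aldh1a7*, an aldehyde dehydrogenase close in sequence to *Aldh1a1*, from 3.64 ± 0.696 to 6.98 ± 0.427 (log2 fold change 0.98, SE 0.14, edgeR adjusted p = 0.000309), while *Aldh1a1* itself fell there. *Txnip*, which inhibits thioredoxin, rose by 0.58 where *Txn1* fell, and *Chac1* rose by 0.80. *Aldh5a1*, of GABA breakdown, fell by 0.36 on the log2 scale.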

How the data were processed

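RNAseq of 12 neurosphere samples, 3 in each of 4 groups taken from the sample labels, was analysed. In Galaxy, the authors mapped read pairs to mm10 with RNA-STAR (STAR 2.6.0b-1 per the submitters' processing notes), counted them with HTSeq-count without strand, leaving out reads with several matches, and deposited raw counts per Ensembl gene. Totals ran from 19315020 to 26456257 counts, with a median of 20994196. Symbols and positions came from GENCODE M21, and start regions from RefSeq (GRCm38.p6).

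Genes with a mean size-factor-normalized count of at least 10 were tested with edgeR 4.0.16 (R 4.3.3) by the quasi-likelihood F test with TMM and Benjamini-Hochberg adjustment over all genes, at 0.05. Each comparison used its own 6 samples and the interaction all 12. The scripts were tested on simulated data. No 2 replicates agreed within sampling noise. A single gene at 3 against 3 cannot reach a two-sided exact p under 0.1. Because reads were counted without strand, overlapping and antisense genes cannot be told apart.

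The 46 genes, the list of 100 and the markers were chosen with earlier results of these data known. Values in every sample are given for *Gstt1*, *Sod3*, *Lpo* and up to 10 genes per comparison with the smallest adjusted p, others by name and fold change, and up to 6 list genes per comparison are named. *Slc7a11*, *Prdx6* and *Cat* were added for their spread after their values were seen. *Nnt* matches 2 overlapping gene IDs, of which the first was used. Alternatives were DESeq2 1.42.0, its size factors in edgeR, no filter, at least 10 counts in every sample, a replicate block, all 12 samples in 1 fit, and leaving out each sample in turn.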

Additional observations from a re-analysis of the deposited data

How the results depend on the processing

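For *ACVR1* R206H against WT without H3.1K27M, the count of 0 redox genes became 1 with DESeq2 and ran from 0 to 15 when single samples were left out, highest without *ACVR1* WT replicate 1. With H3.1K27M, the count of 22 became 3 with all 12 samples in 1 fit and ran from 14 to 18 without single samples. For H3.1K27M with *ACVR1* WT, the count of 22 became 14 with the replicate block and ran from 11 to 34 without single samples, and with *ACVR1* R206H the 36 stayed within 1.5 times. The interaction count of 0 became 3 with DESeq2 and ran from 0 to 18. The replicate block changed no other of these counts beyond 1.5 times. Same-numbered samples correlated between -0.11 and 0.32 in their deviations from the group means, so the numbers were not taken to pair the samples. Over all genes, the calls without H3.1K27M rose from 0 to 26 with DESeq2, 11 with all 12 samples and 3485 without *ACVR1* WT replicate 1. With H3.1K27M, 3185 became 447 with all 12 samples, 2015 without *ACVR1* WT and H3.1K27M replicate 2 and 1915 without *ACVR1* R206H and H3.1K27M replicate 3. For H3.1K27M with *ACVR1* WT, 3533 became 2023 with the block, 6335 with all 12 samples, and from 1037 to 8115 without single samples. The interaction's 11 became 97 with DESeq2, 18 with no filter, 2 with the block, and from 3 to 4112 without single samples. For the list of 100, leaving out *ACVR1* WT replicate 1 gave 35, 53 and 30 calls in the comparisons that use it, all 12 samples in 1 fit gave 2, 42 and 32 in place of 24, 22 and 51, the interaction became 1 with DESeq2, and for H3.1K27M with *ACVR1* WT leaving out *ACVR1* WT replicate 2 or replicate 1, 2 or 3 of *ACVR1* WT with H3.1K27M gave 14, 13, 13 and 12. Of the redox genes called, none took the other sign in any alternative run. Of those not called, 25 of 45 did for *ACVR1* R206H without H3.1K27M, 6 of 23 with it, 1 of 23 for H3.1K27M with *ACVR1* WT, 2 of 9 with *ACVR1* R206H and 18 of 45 for the interaction, all with a log2 fold change of at most 0.31 in size. Among them were *Gstt1* without H3.1K27M (-0.20 to 0.12 without single samples), *Lpo* there (0.00 to 0.97), and *Sod3* with H3.1K27M (0.00 with no filter, and -0.02 to 0.06 without single samples). The cause of these changes was not tested. *Aldh1a2*, *Gstm2*, *Gstt2* and *Aldh1a3* had the lowest mean RPKM of the 46 genes, and whether depth limited them was not tested.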
